A study of Mus musculus with 17 samples.

Results

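Described here are 8 protein-coding transcripts of mouse testis whose mRNA was lower in Mael-/- than in wild type while their ribosome footprints stayed near the wild-type level or were higher. They were picked from these same mRNA and footprint values, as transcripts with a falling mRNA and holding or rising footprints, out of 18286 transcripts with a coding size. The choice therefore used every mRNA value, footprint value and footprint to mRNA ratio given below, and those values are a description with no test of the members. Small RNA and immunoprecipitated RNA were not used in the choice and were tested.

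The groups were testes of the 129SvJae mouse strain, either wild type or Mael-/-, a knockout of the gene for Maelstrom. Each genotype gave 2 mRNA libraries, 2 libraries of ribosome footprints of 26 to 34 nt and 2 libraries of small RNA of 15 to 50 nt. Wild-type testis also gave immunoprecipitates with anti-MAEL antibody (2 libraries of long RNA, and 1 library each of 50 to 150 nt RNA and of RNA from 15 to 50 nt) and 1 long-RNA library with rabbit IgG. Not given in the sources used here are the age of the mice, the cells that Mael-/- testis still holds, and whether replicates were taken from different animals. P-values therefore reflect the spread among these libraries, which may be technical.

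A ribosome footprint is the stretch of mRNA that a ribosome shields from nuclease, so footprints over a coding sequence count the ribosomes on it. The ratio of footprints to mRNA is used as a measure of how heavily an mRNA is translated, and the term buffering is used where footprints change less than the mRNA does. In male germ cells many mRNAs are made early, stored in inactive particles and translated later, in spermatids whose nuclei are no longer transcribed. Maelstrom is a germ cell protein of the granules that also hold the piRNA machinery, where it takes part in piRNA production and transposon silencing.

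The files name the transcripts by Ensembl ID alone, and 0 of these IDs matched the reference tables, so gene names, roles, positions and sequences are not given. For the same reason the level of Mael itself, the markers of testis cell types and the lists of stored spermatid mRNAs, translational regulators and piRNA pathway genes were not analysed here. What the tables do hold is each transcript's length. The whole length ranged from 1063 nt in ENSMUST00000015481 to 4276 nt in ENSMUST00000022890, and the coding part from 265 codons in ENSMUST00000045153 to 841 codons in ENSMUST00000022890. Against all coding transcripts, the 8 lay between the 25.8 and 86.7 percentiles of whole length and between the 35.6 and 88.6 percentiles of coding length. The coding share of the transcript differed widely among them, from 30.9% in ENSMUST00000045153 and 32.9% in ENSMUST00000166360 to 83.3% in ENSMUST00000015481. ENSMUST00000023285 was listed with 1416 nt in all and 1416 nt coding, so its annotation held no untranslated part. The 8 thus spanned much of the range of each length, and 0 other rows of the mRNA and footprint tables had the same counts as any of them.

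Library totals ranged from 4130509 to 15372210 counts for mRNA and from 1668197 to 5009051 for footprints, and the Mael-/- libraries were the shallower ones in both assays. Levels below are in CPM, counts per 1000000 counts of the library total, given as the value in each library and then as mean ± SD (n = 2). Log2 fold changes are Mael-/- over wild type on counts scaled by trimmed mean of M-values (TMM), with the standard error (SE) of the edgeR fit, and a transcript is called where the adjusted p of the quasi-likelihood test over all transcripts is under 0.05. In such bulk samples, fewer cells of a type and less RNA per cell cannot be told apart.

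Among the 8, ENSMUST00000015481 and ENSMUST00000166360 had lower mRNA and called higher footprints. Both footprint calls describe the choice, and neither was made with DESeq2. The mRNA of ENSMUST00000015481 stood at 50.6 and 55.7 CPM in wild type and at 32.7 and 34.9 CPM in Mael-/-, or 53.2 ± 3.60 against 33.8 ± 1.52 CPM. Its footprints stood at 7.59 and 7.29 CPM in wild type and at 16.4 and 15.0 CPM in Mael-/-, or 7.44 ± 0.209 against 15.7 ± 1.03 CPM. The genotypes did not overlap in either assay, and the order was opposite: both Mael-/- libraries were the low ones for mRNA and the high ones for footprints. The log2 fold change was -0.93 ± 0.24 (SE) for mRNA and 0.97 ± 0.32 for footprints.

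For ENSMUST00000166360, an mRNA with 377 codons in 3439 nt, the level was 400.6 and 405.2 CPM in wild type and 272.9 and 200.0 CPM in Mael-/-, or 403 ± 3.26 against 236 ± 51.5 CPM. Footprints were 48.9 and 48.9 CPM in wild type and 76.4 and 68.3 CPM in Mael-/-, or 48.9 ± 0.000778 against 72.4 ± 5.70 CPM. The wild-type values rest on 245 and 161 counts, so an SD this small does not cover their counting error. The wild-type libraries were nearly equal in both assays, and the Mael-/- mRNA libraries differed from each other, with replicate b the lower. On the log2 scale mRNA changed by -1.05 ± 0.25 (SE) and footprints by 0.46 ± 0.15.

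The next 3 transcripts had lower mRNA, while their footprints were higher in both Mael-/- libraries without being called. ENSMUST00000069902 had 139.7 and 176.6 CPM of mRNA in wild type and 93.4 and 80.9 CPM in Mael-/-, a log2 fold change of -1.14 ± 0.25 (SE). Its footprints were 19.8 and 16.4 CPM in wild type and 27.4 and 31.2 CPM in Mael-/-, a log2 fold change of 0.57 ± 0.24. Genotypes were again apart in both assays, and wild-type replicate b was the highest library for mRNA and the lowest for footprints.

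ENSMUST00000166318 had 125.9 and 130.4 CPM of mRNA in wild type and 75.7 and 85.7 CPM in Mael-/-, or 128 ± 3.16 against 80.7 ± 7.08 CPM. Footprints of 19.6 and 25.8 CPM in wild type stood against 29.2 and 33.6 CPM in Mael-/-, or 22.7 ± 4.43 against 31.4 ± 3.06 CPM. Here the wild-type footprint libraries were farther from each other than wild-type replicate b was from the nearer Mael-/- library. The log2 fold changes were -0.95 ± 0.23 (SE) for mRNA and 0.36 ± 0.24 for footprints.

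ENSMUST00000022087, with 692 codons in 4164 nt, was the most heavily footprinted of the 8 by CPM. Its mRNA was 608.5 and 508.1 CPM in wild type and 376.2 and 337.5 CPM in Mael-/-, a log2 fold change of -0.93 ± 0.23 (SE). Its footprints were 103.4 and 97.5 CPM in wild type and 121.7 and 136.7 CPM in Mael-/-, a log2 fold change of 0.25 ± 0.13. The 2 genotypes were apart in each assay, and the distance was smaller in footprints than in mRNA.

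In 2 transcripts with a deeper fall of mRNA the footprint change was not called either. By CPM it was upward in ENSMUST00000045153 and downward in ENSMUST00000022890. ENSMUST00000045153 had 199.97 and 209.7 CPM of mRNA in wild type and 95.7 and 57.4 CPM in Mael-/-, or 205 ± 6.90 against 76.5 ± 27.1 CPM. Its footprints were 33.3 and 30.4 CPM in wild type and 36.6 and 37.8 CPM in Mael-/-, or 31.9 ± 2.09 against 37.2 ± 0.858 CPM. The mRNA log2 fold change of -1.70 ± 0.31 (SE) was the deepest of the 8, and the footprint value of 0.11 ± 0.19 was within its standard error of 0.

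ENSMUST00000022890, the longest of the 8, had the highest mean mRNA level in wild type by CPM. The libraries held 574.0 and 639.4 CPM in wild type and 262.1 and 257.1 CPM in Mael-/-. Its footprints were 84.6 and 94.2 CPM in wild type and 83.7 and 71.3 CPM in Mael-/-, or 89.4 ± 6.74 against 77.5 ± 8.75 CPM. Both Mael-/- footprint libraries thus lay below both wild-type ones, and this is the member for which "holding or rising" fits least. The log2 fold changes were -1.50 ± 0.22 (SE) for mRNA and -0.30 ± 0.14 for footprints, so its footprints went the same way as its mRNA, by a smaller amount.

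The last, ENSMUST00000023285, rests on few footprints. Its mRNA was 44.3 and 40.0 CPM in wild type and 23.0 and 12.1 CPM in Mael-/-, a log2 fold change of -1.54 ± 0.35 (SE). The footprint libraries held 9 and 6 counts in wild type and 12 and 9 counts in Mael-/-, or 1.81 ± 0.0184 against 4.89 ± 0.713 CPM (SD, n = 2). The groups did not overlap in either assay. Pooled over libraries, the Mael-/- to wild-type ratio of footprints was 2.64, with an exact 95% interval of 1.30 to 5.50 that covers counting error only. The choice of this member used these same counts, so the interval is no test of a rise. The log2 fold change of 1.29 ± 0.57 was the highest of the 8 and the least precise.

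**Figure D1:**
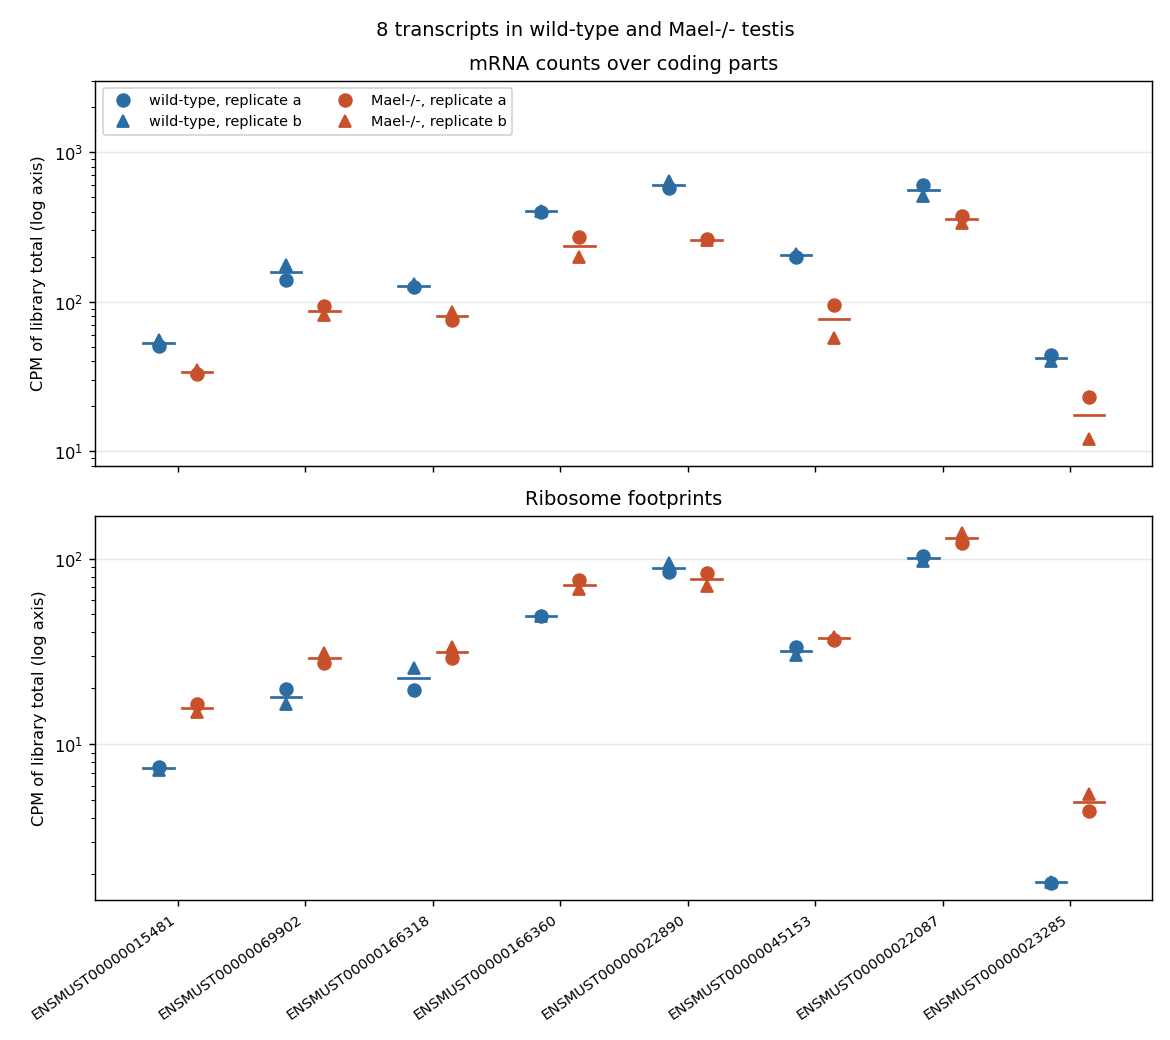
Level of each of the 8 transcripts in CPM of the library total (log axis) in mRNA (top) and ribosome footprints (bottom), with circles for replicate a, triangles for replicate b and lines for the mean of each genotype. Wild type (blue) is above Mael-/- (orange) for every mRNA, and below it for every footprint value but those of ENSMUST00000022890.

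The counts of these calls describe the choice and are not evidence for it. In mRNA, 8 of the 8 members were called lower, where 17.7% of the 11181 transcripts tested were called lower. In footprints, 2 of the 8 were called higher, where 11.3% of 9783 were called higher, and 0 of the 8 were called lower, where 20.3% were. Both Mael-/- libraries were below both wild-type libraries in mRNA CPM for 8 of 8 members and 26.8% of transcripts tested, and above them in footprint CPM for 7 of 8 members and 42.3% of transcripts tested. The scaling of the libraries moves these shares. In mRNA, 1696 transcripts were called higher and 1979 lower with TMM, 3287 and 1470 with library totals and 710 and 1877 with size factors, and the median over all transcripts tested shifted by 0.28 with library totals and by -0.16 with size factors. In footprints, 1102 were called higher and 1988 lower with TMM and 1731 and 1742 with library totals, and the median shifted by 0.11. With library totals 4 of the 8 mRNAs and 4 of the 8 footprints were called, the latter higher. Without wild-type mRNA replicate a, or without replicate b, 0 of the 8 mRNAs and 0 of all transcripts were called (edgeR quasi-likelihood; 3290 and 2356 had an unadjusted p under 0.05). Leaving out any 1 of the 4 footprint libraries, or using DESeq2, left 0 of the 8 footprints called.

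Other transcripts with a like fall of mRNA give the setting for these values, which the choice of the members used. The median log2 fold change of the 8 was -1.09 for mRNA and 0.41 for footprints, against 0.24 and 0.06 over the 9627 transcripts tested in both assays. Among 817 other transcripts that were called lower in mRNA and fell by an amount within the range of the 8, the median was -1.29 for mRNA and -0.90 for footprints. Of these 817, 55 had a footprint log2 fold change above 0, or 6.73%, and the middle 80% of their footprint values ran from -1.88 to -0.12. The footprint values of 7 members lay above the upper end of that range, as the choice requires, and that of ENSMUST00000022890 lay inside it. Over all 9627 transcripts, 430 combined a called fall of mRNA with footprints not called lower, or 4.47%, and the 8 members are among them. A further narrowing to footprints above 0 left 76, or 0.789%, and 3, or 0.0312%, had a called rise of footprints. The members make up 7 of these 76 and 2 of these 3.

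**Figure D2:**
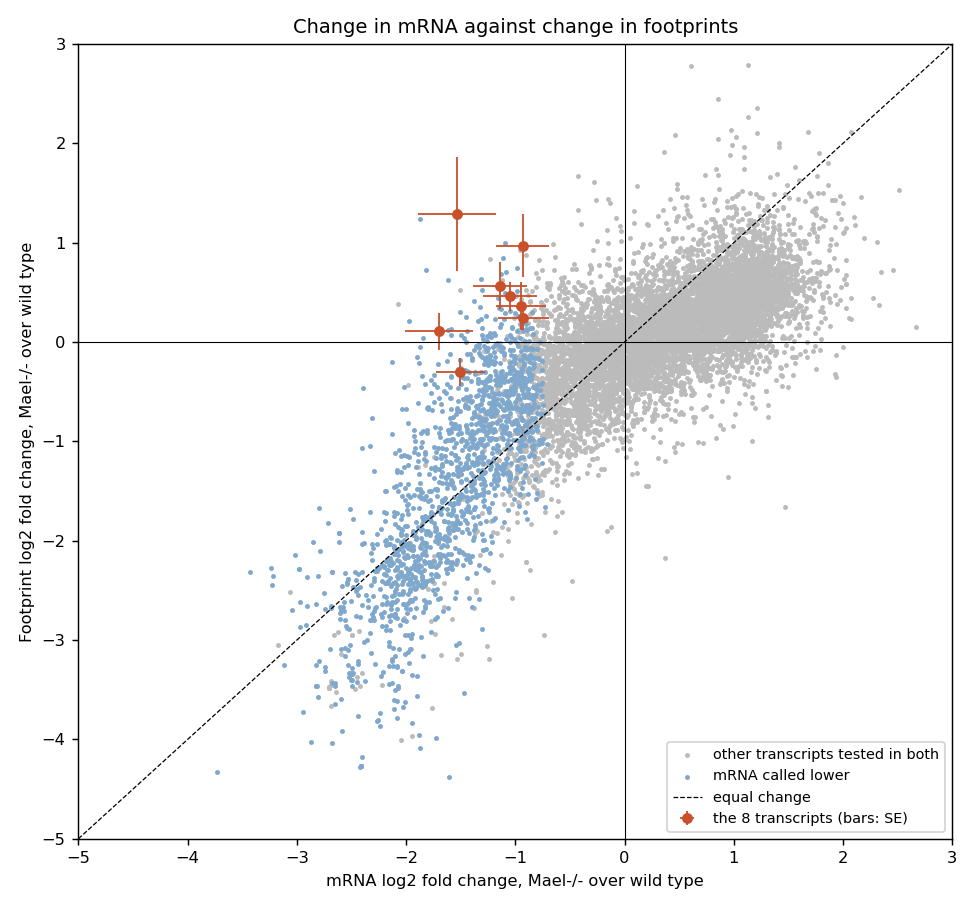
Log2 fold change of Mael-/- over wild type in mRNA (horizontal) and in ribosome footprints (vertical) for 9627 transcripts tested in both, with transcripts called lower in mRNA in blue, the 8 transcripts in orange with SE bars, and a dashed line of equal change; 8 transcripts lie outside the axes, which run from -5 to 3. The 8 sit left of 0 and above the dashed line, and ENSMUST00000022890 is the only one of them below 0 in footprints.

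The ratio of footprint CPM to mRNA CPM, with 0.5 CPM added to each, joined mRNA and footprint libraries of the same letter. In wild type the 8 were among the transcripts with the fewest footprints for their mRNA. ENSMUST00000015481 had ratios of 0.158 and 0.139 in wild type and of 0.510 and 0.438 in Mael-/-. ENSMUST00000166360 had 0.123 and 0.122 in wild type and 0.281 and 0.343 in Mael-/-. The lowest ratios were those of ENSMUST00000023285, 0.0513 and 0.0574 in the wild-type pairs, with 0.208 and 0.468 in the Mael-/- pairs.

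On the log2 scale the wild-type ratio of the 8 ran from -4.20 to -2.46, at the 0.384 to 3.72 percentiles of the 9627 transcripts, where the median over all transcripts was 0.06. In Mael-/- the ratio of the 8 ran from -1.74 to -0.99, at the 9.68 to 26.1 percentiles, where the median over all was -0.34. The members thus moved towards the middle of the distribution, while all 8 stayed below its median in each of the 4 library pairs. The choice used these same libraries and can favour a low wild-type ratio and its rise, so the move describes the choice. Among the 817 other transcripts with a like fall of mRNA, the median log2 ratio was -1.30 in wild type and -1.11 in Mael-/-. The 2 genotypes did not overlap for any of the 8, as for 9.96% of transcripts tested in this direction. Among the 314 other transcripts with a wild-type ratio inside the range of the 8, 290 had an mRNA log2 fold change below 0. In mRNA 229 of the 314 were called lower, where 17.7% of the 11181 transcripts tested were. Footprints were above 0 in 79 of the 314, where 53.3% of the 9627 were. The median over the 314 was -1.34 for mRNA and -0.53 for footprints. Most of these 314 thus had lower mRNA, and a minority had footprints above 0. The wild-type libraries enter both the ratio that picked the 314 and their fold changes. The ratio and the changes are therefore not independent, and no conclusion on low ratios is drawn.

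**Figure D3:**
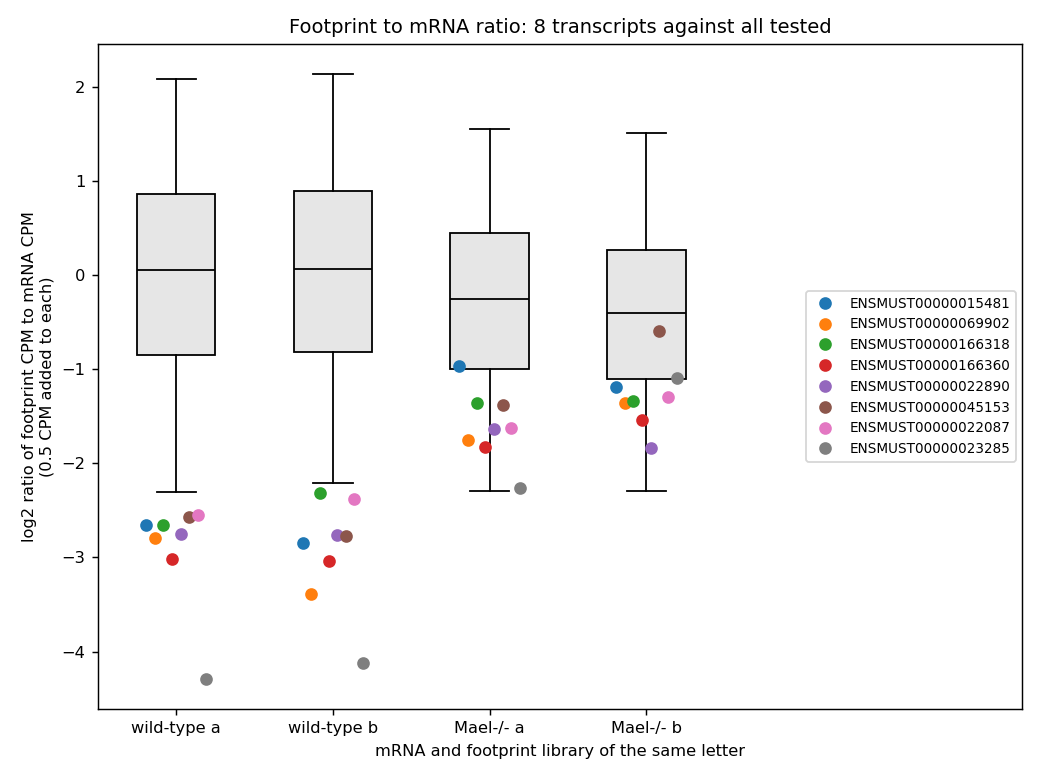
Log2 ratio of footprint CPM to mRNA CPM (0.5 CPM added to each) in the 4 pairs of libraries with the same letter; boxes show the quartiles and whiskers the 5 and 95 percentiles of 9627 transcripts, and coloured points the 8 transcripts, set side by side. The points lie below the whisker in wild type, between -4.29 and -2.31, and between -2.26 and -0.60 in Mael-/-.

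The change of the ratio, fitted as the interaction of assay and genotype, ranged from 1.26 ± 0.27 (SE, log2) in ENSMUST00000022087 and 1.29 ± 0.27 in ENSMUST00000022890 to 1.997 ± 0.31 in ENSMUST00000015481 and 2.89 ± 0.63 in ENSMUST00000023285. The median of the 8 was 1.69 and that of all 11427 transcripts tested -0.19. None of the 8 passed the adjusted test, as 0 of 11427 did (edgeR quasi-likelihood; 915 transcripts had an unadjusted p under 0.05). With DESeq2 6 of the 8 and 50 of all were called (ENSMUST00000015481 and ENSMUST00000023285 received no adjusted p there), and without Mael-/- mRNA replicate a 7 of the 8 and 178 of all were called. The Mael-/- mRNA libraries moved ENSMUST00000023285 most, from 2.89 to 3.53 without replicate a and to 2.38 without replicate b, followed by ENSMUST00000045153, from 1.87 to 2.38 and to 1.41. With TMM the footprints changed less than the mRNA in all members but ENSMUST00000015481, which are values of buffering without a call by the adjusted test. In ENSMUST00000015481 footprints rose by 0.97 and mRNA fell by 0.93, so by these values the term does not cover it. With library totals the term does not cover ENSMUST00000023285 either, at 1.39 for footprints and -1.25 for mRNA. With TMM the sizes in both transcripts differed by less than the SE of the footprint change, so they do not settle the term. It compares sizes alone, and footprints rose in all members but ENSMUST00000022890. The rule that picked the 8 states no threshold. When the 418 transcripts with a called fall of mRNA, footprints not called lower and a ratio change above 0 are ordered by the unadjusted p of that change, the members hold places 1, 3, 4, 5, 6, 9, 10 and 11. The transcript in place 11, ENSMUST00000022087, had a ratio change of 1.26, and the one in place 12, which is no member, had log2 fold changes of -1.97 for mRNA, 0.21 for footprints and 2.24 for the ratio.

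**Figure D4:**
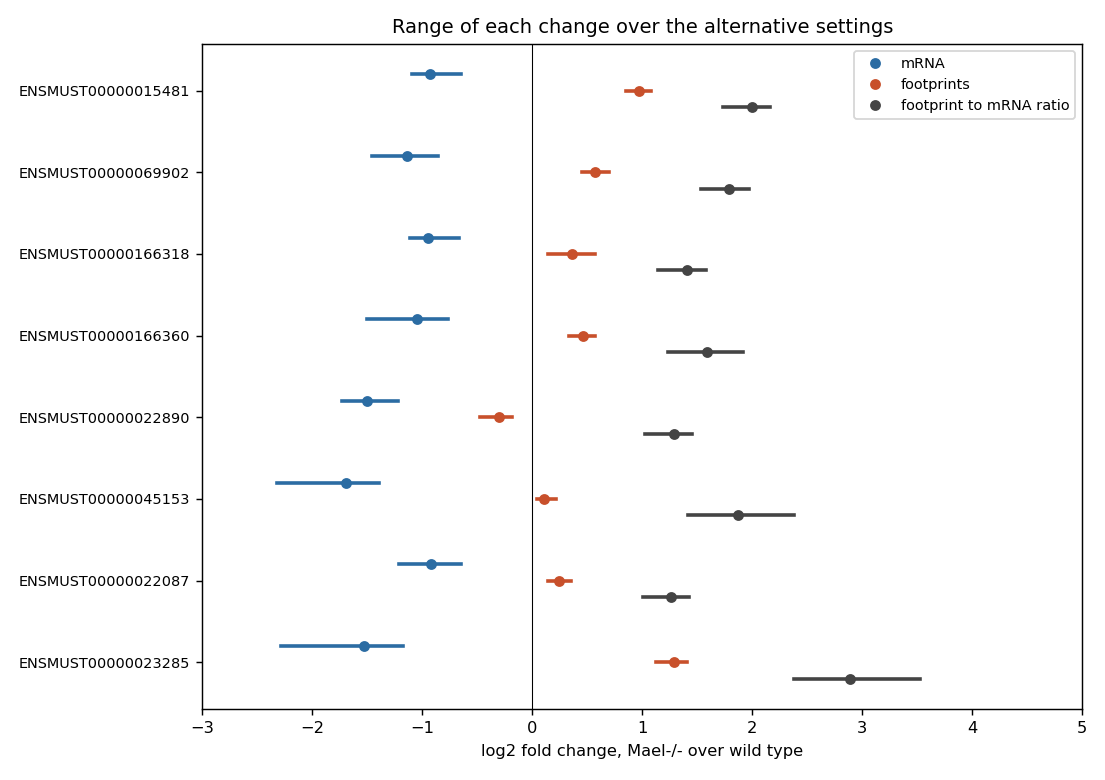
Log2 fold change of Mael-/- over wild type for mRNA, footprints and their ratio in each of the 8 transcripts, with points for the value as reported and bars for the lowest and highest value over the other scalings, filters, tests, blocks and left-out libraries. No bar crosses 0, and the shortest distance to 0 is that of the ENSMUST00000045153 footprints, at 0.05. The choice of the 8 used the same libraries.

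Compared per length, the mRNA levels of all 8 in wild type lay above the median of transcripts tested. They ranged from 89.3 CPM per 1000 codons in ENSMUST00000023285, at the 58.6 percentile of transcripts tested, to 1069 in ENSMUST00000166360, at the 95.5 percentile. ENSMUST00000022087, ENSMUST00000045153 and ENSMUST00000022890 followed with 807, 773 and 721 CPM per 1000 codons. The remaining 3 stood lower, at 231 for ENSMUST00000166318, 219 for ENSMUST00000069902 and 180.2 for ENSMUST00000015481. Footprints in wild type ranged from 3.83 CPM per 1000 codons in ENSMUST00000023285, at the 1.51 percentile, to 145.2 in ENSMUST00000022087, at the 69.2 percentile. The 4 members with the most mRNA per length also had the 4 highest footprint levels per length, and ENSMUST00000023285 was lowest in both.

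The other transcripts most like the mean profile of the members over the 8 mRNA and footprint libraries were ENSMUST00000023213, ENSMUST00000088940 and ENSMUST00000098312. Their Pearson correlations with that mean profile were 0.977, 0.974 and 0.971 among 8384 transcripts compared. The members' own correlations with that mean, of which each is a part, ran from 0.750 in ENSMUST00000022890 to 0.976 in ENSMUST00000166360. ENSMUST00000023213 had 29.5 and 31.0 CPM of mRNA in wild type against 19.5 and 14.8 CPM in Mael-/-, and footprints of 16.6 and 16.1 CPM against 22.7 and 27.6 CPM. ENSMUST00000088940 had the same order by CPM with smaller differences, 127 and 124 against 112 and 109 CPM for mRNA and 52.3 and 51.6 against 55.9 and 54.5 CPM for footprints. With TMM its log2 fold changes were -0.47 for mRNA and -0.02 for footprints, so its footprints were not higher on that scale. A correlation ignores the size of a change, and the points share libraries and depth.

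Small RNA and immunoprecipitates had no part in the choice of the 8. The first of these comparisons asked whether small RNA from the 8 transcripts differed between the genotypes. Such RNA was scarce, with at most 69 counts in any library, in totals of 4832512 to 44418162. ENSMUST00000166360 had 66 and 17 counts in wild type and 54 and 40 in Mael-/-, or 1.49 and 2.19 against 2.47 and 8.28 CPM. ENSMUST00000022890 had 69 and 32 counts against 50 and 47, and ENSMUST00000022087 had 69 and 20 against 48 and 47. By CPM both Mael-/- libraries were above both wild-type ones for ENSMUST00000166360 alone among the 5 members that passed the filter on low counts, and for 66.5% of the 9906 features tested. Mael-/- replicate b was the highest library by CPM for each of the 5.

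Only 5 of the 8 passed the filter on low counts, and 0 of them were called, where 3.54% of the 9906 features tested were called lower and 3.85% higher. Their log2 fold changes ran from -0.40 ± 0.70 (SE) in ENSMUST00000166318 to 0.18 ± 0.51 in ENSMUST00000166360 (edgeR quasi-likelihood, adjusted p = 0.721 and 0.839). The median of the 5 was 0.13 and that of all features 0.15. Scaling by library totals moved the median of all features by 1.27, and the 5 values then ran from 0.74 to 1.54, so their direction depends on the scaling. The others, ENSMUST00000015481, ENSMUST00000069902 and ENSMUST00000023285, had 0 to 6 counts per library, too few to show a difference at this depth. Of these, ENSMUST00000015481 also had both Mael-/- libraries above the wild-type ones, with 3 and 2 counts against 1 and 0.

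A further comparison asked whether anti-MAEL carried the 8 mRNAs beyond the IgG background. By CPM, both anti-MAEL libraries were below IgG for 8 of 8 members, for 49.8% of the 16066 features tested, and for 53.3% of the 10784 coding transcripts among them. ENSMUST00000022890 stood at 153.8 and 315.9 CPM with anti-MAEL and at 410.6 CPM with IgG, and ENSMUST00000166360 at 123.8 and 224.5 against 227.3 CPM. The anti-MAEL libraries differed from each other more than the higher of them differed from IgG for both, with replicate a the lower, as it was for each of the 8. The difference was smaller for ENSMUST00000023285, with 5.74 and 6.34 CPM against 7.70 CPM.

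After TMM scaling the log2 fold changes of anti-MAEL over IgG ran from -0.54 ± 0.46 (SE) in ENSMUST00000022890 to 0.02 ± 0.27 in ENSMUST00000045153, and 0 of 8 were called (edgeR quasi-likelihood, adjusted p = 0.999 and 1.00; DESeq2 called 0 of the 8 too). Of all features, 1.28% were called higher and 0 lower (1225 had an unadjusted p under 0.05). The median of the 8 was -0.19 and that of all features 0.02. ENSMUST00000015481, 1 of the 2 members with footprints called higher, was measured at 8.17 and 14.3 CPM in the anti-MAEL libraries against 16.2 CPM in IgG, which gave a log2 value of -0.22 ± 0.34 (adjusted p = 0.999). With library totals, which moved the median of all features by -0.30, the value of ENSMUST00000045153 was -0.29, so that all 8 were below 0. A single IgG library gives no measure of the spread of the background.

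**Figure D5:**
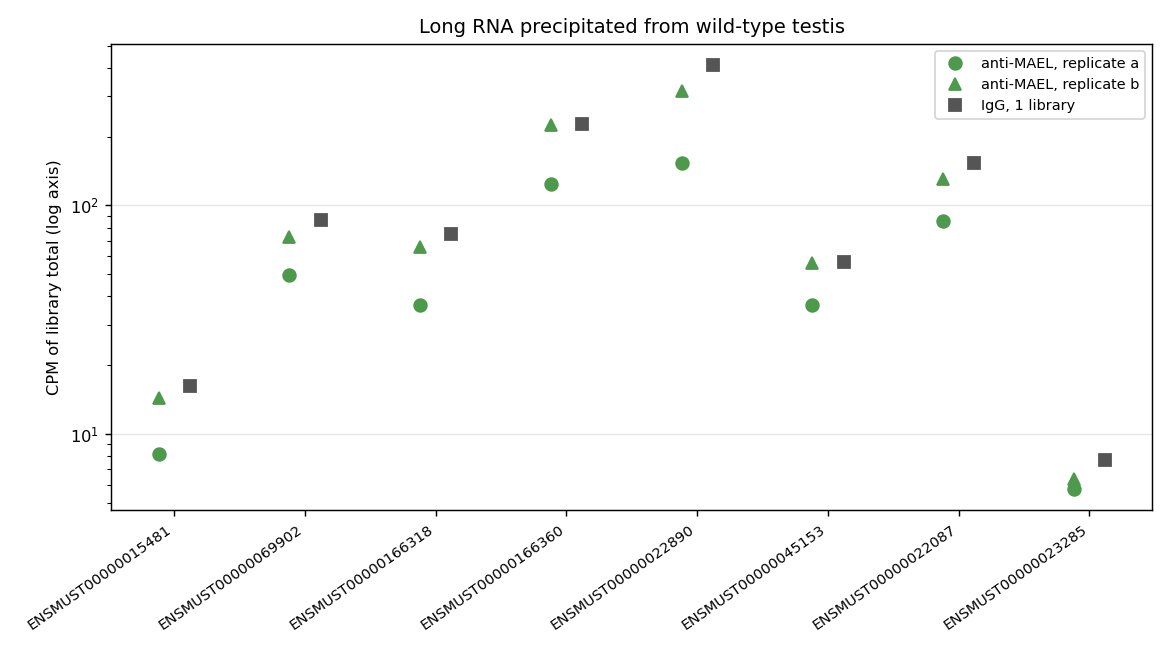
Level of each of the 8 transcripts in CPM of the library total (log axis) in long RNA precipitated from wild-type testis with anti-MAEL (green; circle, replicate a; triangle, replicate b) and with IgG (grey square, 1 library). The IgG square is above both anti-MAEL points for every transcript, and replicate a is the lower of the 2.

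The size-selected anti-MAEL precipitates have 1 library each and no IgG of their size, so they give values only. At 50 to 150 nt the 8 ranged from 0.0725 CPM in ENSMUST00000015481 to 14.5 CPM in ENSMUST00000022890, which lay at the 96.8 percentile of coding transcripts. At 15 to 50 nt 7 of the 8 were between 0.0811 and 0.701 CPM. ENSMUST00000022087 stood above them with 6.62 CPM, from 1143 counts, at the 89.1 percentile.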

How the data were processed

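The authors deposited raw counts of reads per feature, without normalization. Tools and build listed by the submitters' processing notes, with no role, are TopHat2 2.0.7, Bowtie2 2.0.6, CASAVA 1.8 and mm9. The counter, the use of strand and the handling of reads that match several transcripts are not given in the sources used here. Isoforms and overlapping genes may share reads. Per the labels' protocols, the mRNA kit keeps no strand. The mRNA and footprint tables count a coding part. Their size column was read as codons with 20 left out, because adding 20 makes the coding length equal to the whole length in 2023 transcripts and longer in 29.

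The members and lists were chosen with earlier results of these data known. The 8 members were named by ID, and other transcripts by likeness of profile: log2(CPM + 0.5) centred within each assay, among transcripts with at least 5 CPM in both. The 3 transcripts ranked highest are named, by ID because the files pair no symbols.

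Each assay was fitted alone (4 libraries, genotype as the only term), the ratio as an interaction over 8 libraries, and anti-MAEL against IgG over 3 libraries without mRNA, since the mRNA libraries had served to choose the members. edgeR 4.0.16 in R 4.3.3 ran the quasi-likelihood test with TMM scaling, filterByExpr and Benjamini-Hochberg adjustment, at 0.05. For 214 piRNA loci with 465 entries, the entry with the most counts was kept. Alternatives were DESeq2 1.42.0, other scalings, no filter, collapsed rows, blocks and left-out libraries. The fits were tested on simulated counts. Python 3.11.15 with numpy 2.4.6, pandas 2.3.3, scipy 1.17.1 and matplotlib 3.10.9 did the rest. Libraries of a group differed by more than sampling noise, with chi-square per degree of freedom from 3.30 to 51.5.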

Additional observations from a re-analysis of the deposited data

How the results depend on the processing

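The sign of every member's change in mRNA, footprints and their ratio was the same under all alternatives run for it. The choice used these values and the alternatives re-use the same libraries, so that agreement is no independent check. Small RNA values of all 5 members tested, and 3 anti-MAEL values (ENSMUST00000166360, ENSMUST00000045153 and ENSMUST00000023285), changed sign under 1 or more. The number of the 8 called in mRNA was 4 with library totals and 0 to 8 when 1 library was left out, and over all transcripts it was 0 to 4077 when 1 was left out. In footprints the number was 4 with library totals, 0 with DESeq2 (1813 of all transcripts called), 0 with the replicate block and 0 without any 1 library. For the ratio it was 6 with DESeq2 (50 of all; the other 2 had no adjusted p) and 0 to 7 when 1 library was left out (0 to 178 of all), and without a filter 3 of all were called. In small RNA, 0 of the 8 were called throughout (with DESeq2, 3 had an adjusted p), while the calls over all features were 2589 with library totals, 481 without a filter, 4072 with the replicate block and 78 to 1895 when 1 library was left out. For anti-MAEL over IgG, again with 0 of the 8 called, they were 323 with size factors, 101 with library totals, 670 without a filter, 347 with DESeq2 and 108 in the fit of 5 libraries. Leaving out an anti-MAEL library leaves no residual degrees of freedom and gives a value with no test. The cause of these changes was not tested.

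The letters a and b are shared by the groups, but no label says that they pair animals. The a minus b differences of the genotypes correlated across transcripts by 0.18 in mRNA, -0.14 in footprints and 0.52 in small RNA, and those of mRNA and footprints by 0.24 within each genotype. With crossed letters as a block, chosen after seeing the data, 3660 footprint calls were made, against 3090 with no block and 2494 with the letters as a block. With mRNA and footprint libraries of like genotype and letter as a pair, also chosen after seeing the data, 0 ratios were called. A pseudocount of 5 CPM lowered the ratio change of ENSMUST00000015481 to 1.32 and that of ENSMUST00000023285 to 1.64, from 1.67 and 2.52. The precision of ENSMUST00000023285 is limited by depth, with 15 footprints in wild type and 21 in Mael-/-.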
